A study of Bos taurus with 30 samples.

Results

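ATAC-seq libraries of bovine embryos cultured with α-amanitin (transcription blocked embryos, TBE) were compared between the 2-cell and the 4-cell stage. These 6 libraries, 3 of 2-cell TBE and 3 of 4-cell TBE, were chosen by their labelled stage and treatment from the 30 libraries of the series. Both groups came from oocytes matured and fertilised in vitro with frozen semen, and both received α-amanitin at 50 µg/ml from day one of culture. The 2-cell TBE were collected 30 to 32 h after insemination and the 4-cell TBE 2 days after insemination. Untreated 2-cell and 4-cell embryos of the same ages, 3 libraries each, served only to show where TBE differed. The 3 libraries of a group were pools of embryos from separate collections, and the embryos of a collection were divided between treated and untreated culture. Within a pool, an open site in fewer cells and a less open site in every cell cannot be told apart. The sources do not say whether equal replicate numbers mark 1 collection, within a stage or across stages, nor how far the drug had lowered transcription in these pools. Oocyte and cumulus cell markers were not checked here, because genes were not placed on the build of the files, ARS-UCD1.2.

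ATAC-seq marks open chromatin through a transposase that inserts sequencing adapters where DNA is not wrapped tightly in nucleosomes. Such sites are typically promoters, enhancers and insulators held open by bound factors. Alpha-amanitin binds RNA polymerase II and stops its elongation. In cattle the major activation of the embryonic genome occurs around the 8-cell stage, and before it the embryo lives mainly on RNA and protein stored in the oocyte. A change from the 2-cell to the 4-cell stage in TBE is thus a change that takes place in the presence of the drug.

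The 6 peak lists did not separate the stages by their size. Peaks of the 2-cell TBE libraries numbered 925, 8118 and 11083 in replicates 1, 2 and 3. Those of the 4-cell TBE libraries numbered 32260, 4166 and 3094. The 4-cell TBE group held the longest list in replicate 1, its other lists were shorter than 2 of the 2-cell TBE lists, and the groups overlapped. Peaks covered 0.347, 2.93 and 4.56 Mb in 2-cell TBE and 13.9, 1.46 and 1.10 Mb in 4-cell TBE. The geometric mean covered length was 1.69-fold higher in 4-cell TBE, with an exact two-sided permutation p of 0.6 (n = 3 and 3), and that of the number of peaks was 1.71-fold higher (exact permutation p = 0.6). With 3 libraries against 3 this test cannot give a p below 0.1, so no comparison of single values between these groups could pass 0.05.

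The direction of that difference rested on single libraries. Without 4-cell TBE replicate 1, covered length in 4-cell TBE was 0.759 of that in 2-cell TBE, and without 2-cell TBE replicate 1 it was 0.770. With 1 threshold for all lists, a mean −log10 p of at least 5, it was 1.40.

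Peak length and height overlapped between the stages. The median peak length was 219, 243 and 290 bp in 2-cell TBE and 294, 241 and 229 bp in 4-cell TBE, a ratio of 1.02 (exact permutation p = 0.8, n = 3 and 3). Fold enrichment is the tag pileup plus 1 over the local background plus 1 in the same library, averaged over the peak. Its median over the peaks of a list was 4.46, 3.94 and 4.14 in 2-cell TBE and 3.66, 4.17 and 3.99 in 4-cell TBE (ratio 0.942, exact permutation p = 0.5, n = 3 and 3). The longest list had the lowest median and the shortest list had the highest. Between 2.17% and 5.84% of peaks in the 6 lists were 1 kb or longer, and the longest peak was 5351 to 6138 bp.

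Read totals are not part of the lists, so depth was read from the background level, the mean number of extended tags over a position, which was solved from the fold enrichment and p of peaks with a constant pileup. It was at most 0.140 in 2-cell TBE replicate 1, and 0.196 and 0.343 in replicates 2 and 3. In 4-cell TBE it was 0.324, 0.134 and 0.157. The levels summed to at most 0.679 for 2-cell TBE and to 0.615 for 4-cell TBE, so the groups were of like depth in sum while their libraries spanned a wide range. The ratio of the geometric means was 0.898, a lower bound for the same reason (exact permutation p = 0.7, n = 3 and 3). The order of the peak numbers followed these levels in 2-cell TBE, but not between replicates 2 and 3 of 4-cell TBE. 4-cell TBE replicate 1 had a slightly lower level than 2-cell TBE replicate 3 and 32260 against 11083 peaks. Per unit of background level the lists covered 2.48, 14.97 and 13.3 Mb in 2-cell TBE, the first a lower bound, and 43.0, 10.9 and 6.99 Mb in 4-cell TBE (ratio 1.88, exact permutation p = 0.6, n = 3 and 3). That ratio is thus an upper bound.

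4-cell TBE replicate 1 stood apart in its background as well. Of its peaks whose local background could be solved, 49.2% had the level of the whole library, against 2.63% to 12.6% in the other 4 libraries with a solved level. Only 32.6% of its peaks lay in regions of untreated 4-cell embryos, against 71.3% and 60.6% for the other 4-cell TBE libraries. The share of peaks on unplaced sequences was 2.12% in this list and 19.5% in the shortest list, 2-cell TBE replicate 1, with 3.18% to 7.78% in the others. The part of depth and of this library's background in the results below was not tested.

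**Figure D1:**
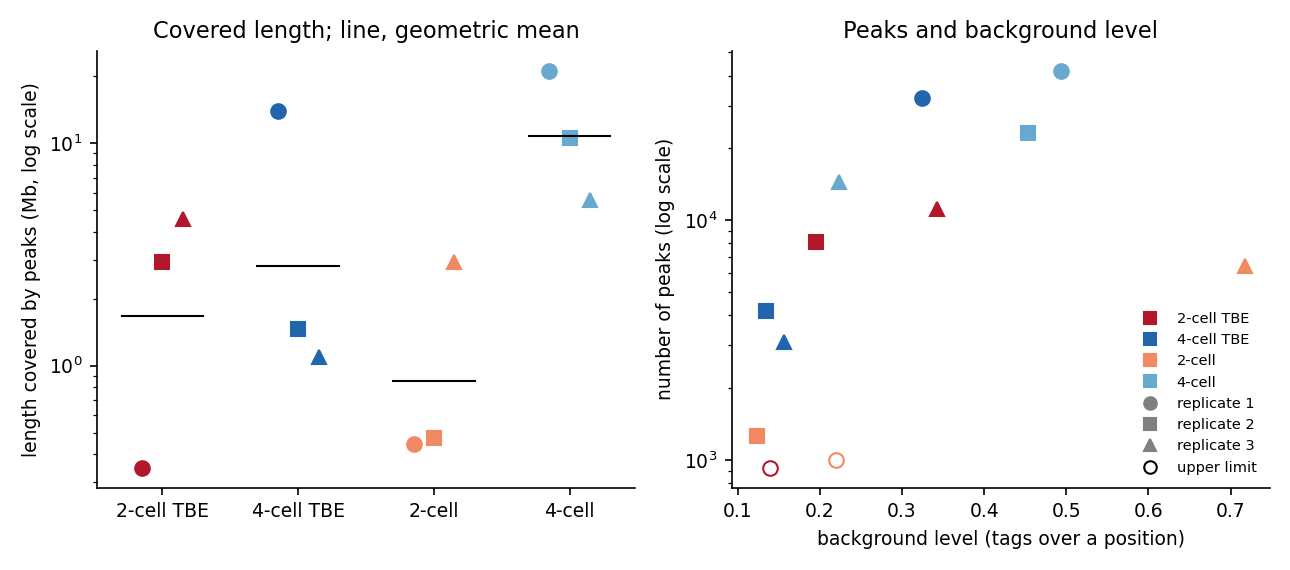
Left, length covered by peaks (Mb, log scale) in each library of 2-cell and 4-cell embryos with and without α-amanitin, with the geometric mean of each group as a line; right, number of peaks (log scale) against the background level, with open symbols for levels known only as upper limits. The 4-cell TBE libraries span 1.10 to 13.9 Mb and overlap the 2-cell TBE range of 0.347 to 4.56 Mb, while untreated 4-cell libraries all lie above the untreated 2-cell libraries.

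In untreated embryos covered length was 0.444, 0.474 and 2.92 Mb in the 2-cell libraries and 21.2, 10.5 and 5.56 Mb in the 4-cell libraries, and the groups did not overlap. Their geometric means differed 12.6-fold against 1.69-fold in TBE. The change in TBE was 0.134 of the change in untreated embryos, and a two-sided exact permutation test of that difference, over 400 exchanges of the treatment label within the stages, gave p = 0.165 (n = 3 per group). The test did not pass 0.05. Exchanging labels within a stage assumes no drug effect at either stage, so the test is not exact for an equal change alone. Per unit of background level the ratio was 0.204 (exact permutation p = 0.08). For 2-cell TBE replicate 1 and untreated 2-cell replicate 1 only upper limits of that level were known, 0.14 and 0.22. They move the ratio in opposite directions, so it is not a bound. For covered length itself the ratio was 0.0601 without 4-cell TBE replicate 1 (exact permutation p = 0.07). It was 0.0610 without 2-cell TBE replicate 1 (exact permutation p = 0.05) and 0.0721 without untreated 2-cell replicate 3 (exact permutation p = 0.07). Read as pairs of equal replicate number, covered length in TBE was 0.781, 6.19 and 1.56 of that in untreated embryos in 2-cell replicates 1, 2 and 3, and 0.657, 0.139 and 0.197 in 4-cell replicates 1, 2 and 3. The 4-cell ratios were all below the 2-cell ratios, which gave an exact permutation p of 0.1 over 20 exchanges between the stages, the smallest this design allows.

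The peak lists of 1 stage were not shown to be more alike than lists of different stages. Similarity was measured by the Jaccard index, the bases shared by 2 lists over the bases in either. It was 0.0655, 0.0491 and 0.141 among the 2-cell TBE libraries and 0.0655, 0.0439 and 0.143 among the 4-cell TBE libraries. Between the stages the 9 pairs ran from 0.0198 to 0.133. The mean was 0.0846 within stages and 0.105 between them, a difference of -0.0209 (exact permutation p = 0.2 over 20 relabellings of 6 libraries). With the 925 peaks of smallest p in each list, 925 being the length of the shortest list, the index rose to 0.280 within and 0.284 between the stages (exact permutation p = 0.7). The share of a shorter list found in a longer one varied widely. Of the 925 peaks of 2-cell TBE replicate 1, 79.4% overlapped a peak of 4-cell TBE replicate 1, against 55.6% and 63.8% for replicates 2 and 3 of its own stage. Of the peaks of 4-cell TBE replicate 3, 62.2% overlapped 4-cell TBE replicate 1, 48.2% overlapped 2-cell TBE replicate 3 and 31.5% overlapped 4-cell TBE replicate 2.

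**Figure D2:**
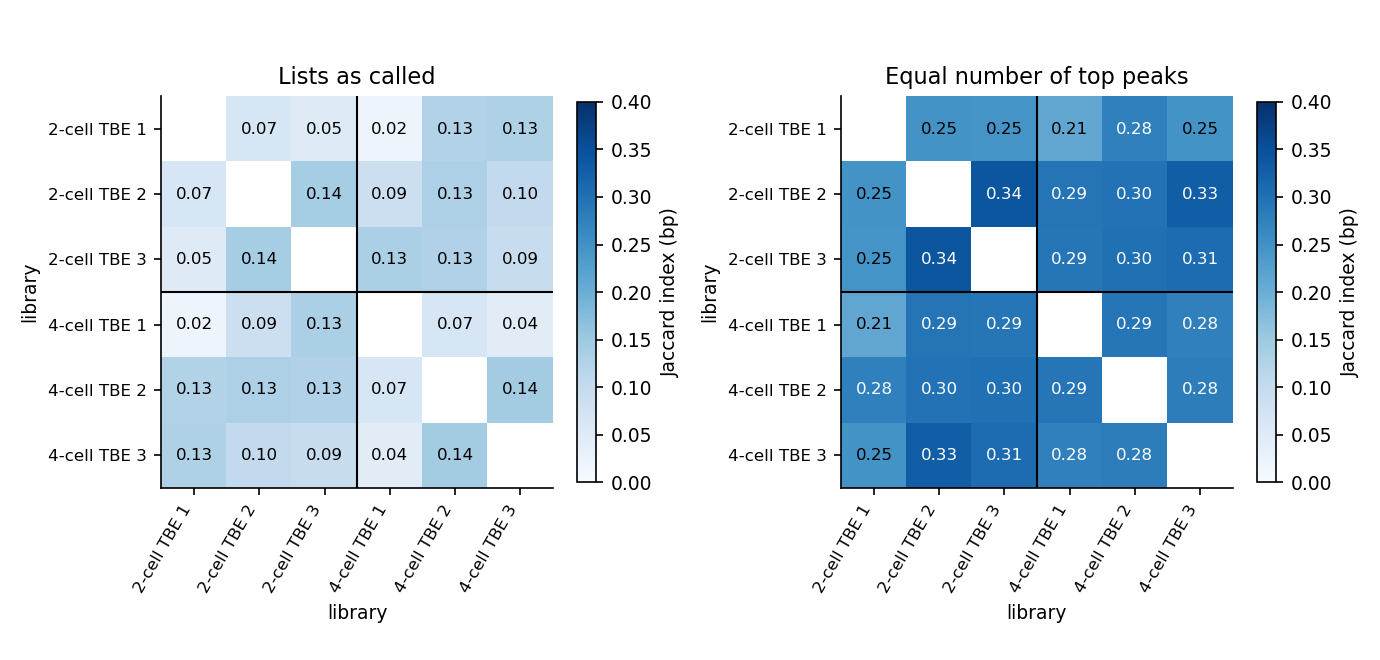
Jaccard index in base pairs for each pair of TBE libraries, for the lists as called (left) and for the 925 peaks of smallest p in each list (right), on 1 colour scale from 0 to 0.40. The blocks within a stage and between the stages hold like values, with means of 0.0846 and 0.105 on the left and 0.280 and 0.284 on the right.

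Merging the 6 lists gave 42436 regions, of which 77.4% had a peak in 1 library alone. The largest class, 23085 regions or 54.4%, was found in 4-cell TBE replicate 1 alone. The other 5 libraries had 159 to 4143 regions of their own. Of the regions found in 4-cell TBE replicate 1 alone, 14.8% lay in regions of untreated 4-cell embryos and 25.4% in regions of GV oocytes (germinal vesicle stage, before maturation). For regions found in 2-cell TBE replicate 3 alone the shares were 14.7% and 27.9%. The private regions of the longest list of either stage thus had close shares in untreated 4-cell embryos and in oocytes, but less close ones at later stages. In untreated 8-cell embryos the shares were 37.8% and 43.5%, and in morulae 43.9% and 52.7%. Private regions of the other libraries had shares of 7.22% to 14.7% in untreated 4-cell embryos and 14.1% to 22.3% in GV oocytes.

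A region could split by stage only where more than 1 library had a peak. A peak in at least 2 of the 4-cell TBE libraries and in none of the 2-cell TBE libraries was found for 924 regions, 2.18% of all regions and 23.3% of those with peaks in at least 2 4-cell TBE libraries. The reverse was found for 202 regions, 0.476% of all and 6.25% of those with peaks in at least 2 2-cell TBE libraries. Full separation means a peak in all 3 libraries of 1 stage and none of the other. It held for 41 regions in favour of 4-cell TBE (0.0966% of all regions) and for 1 in favour of 2-cell TBE (0.00236%), while 311 regions (0.733%) had a peak in all 6 libraries. With 1 library of each stage left out, so that a peak was needed in both libraries of 1 stage and in none of the other, this balance depended on the libraries. Without replicate 1 of both stages, 53 of 19207 regions were found in 4-cell TBE alone and 1291 in 2-cell TBE alone. Without replicate 3 of both stages, 1228 and 4 of 37229 regions were found.

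**Figure D3:**
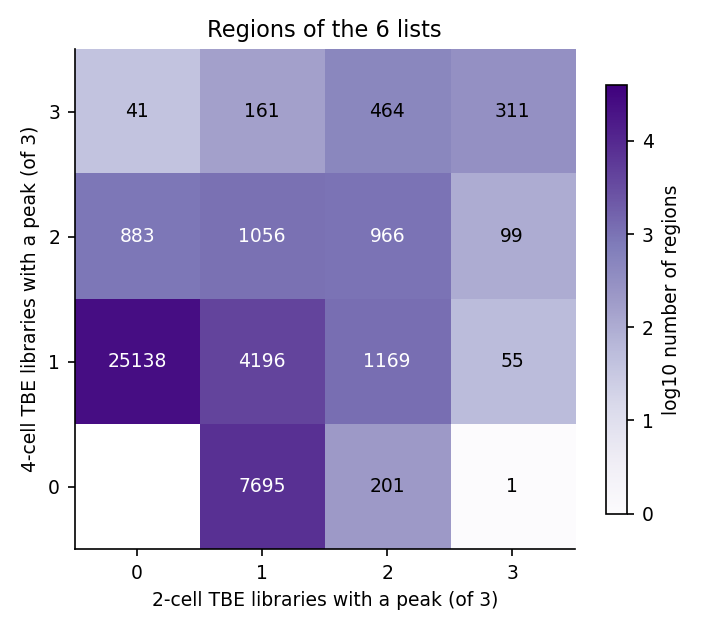
Number of merged regions by how many of the 3 2-cell TBE libraries (horizontal) and of the 3 4-cell TBE libraries (vertical) held a peak, with colour on a log10 scale. Most regions lie in the cells for 1 library, and 311 regions had a peak in all 6 libraries against 41 and 1 at the fully separated corners.

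Regions of a stage were next defined as merged peaks supported by at least 2 of its 3 libraries, which gave 3230 regions in 2-cell TBE and 3961 in 4-cell TBE. Of the 4-cell TBE regions, 2139 (54.0%) shared no base with a 2-cell TBE region and are called gained, and 1822 shared at least 1 base and are called kept. Of the 2-cell TBE regions, 1407 (43.6%) shared no base with a 4-cell TBE region and are called lost. The names describe the lists and carry no test.

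Both sets leaned on the longest lists of their stage. All but 14 of the gained regions had a peak in 4-cell TBE replicate 1, joined by replicate 2 in 1283 regions, by replicate 3 in 640 and by both in 202. Of the lost regions, 1269 were supported by replicates 2 and 3 of 2-cell TBE alone. Without 4-cell TBE replicate 1, 207 regions were gained and 2463 were lost. Of these, 193 gained and 2215 lost regions had a peak in the library left out, so most of the lost ones were not absent from 4-cell TBE. Without 2-cell TBE replicate 3, 3522 were gained and 73 were lost. Such a change asks for 2 of 2 libraries in 1 stage and 2 of 3 in the other. With 1 library left out of each stage, and 2 of 2 asked for in both, gained regions outnumbered lost ones in 6 of 9 choices. The lost regions were more in the 3 choices without 2-cell TBE replicate 1, with 2319 lost and 235 gained where 4-cell TBE replicate 1 was left out as well.

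Most gained and lost regions had some peak at the other stage. Of the 2139 gained regions, 1215 (56.8%) had a peak in a 2-cell TBE library, 41.0% in replicate 3. Of the 1407 lost regions, 1205 (85.6%) had a peak in a 4-cell TBE library, and 1160 (82.4%) had one in replicate 1. Fold enrichment at the lost regions had a median of 4.57 over those with a peak in 4-cell TBE replicate 1, beside 4.15 and 4.38 in 2-cell TBE replicates 2 and 3, which had chosen them. At the gained regions it was 4.37 over those with a peak in 2-cell TBE replicate 3, beside 4.34 in 4-cell TBE replicate 1.

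Gained regions had a median length between those of lost and kept regions. Median lengths were 503 bp for gained, 409 bp for lost and 560.5 bp for kept regions, and 12.1%, 7.39% and 16.4% were 1 kb or longer. Unplaced sequences held 5.70% of gained, 2.70% of lost and 10.5% of kept regions, and the X chromosome held 2.34%, 2.06% and 2.36%. Across the 29 autosomes the median density was 0.718 gained, 0.523 lost and 0.639 kept regions per Mb. Chromosomes dense in gained regions were dense in lost ones. Chromosome 18 had 1.87 gained, 1.11 lost and 1.41 kept regions per Mb, and chromosome 19 had 1.62, 0.914 and 1.12. The X chromosome was sparse in every set, with 0.360, 0.209 and 0.309 per Mb. Spearman's rho between gained and lost density was 0.717 over the 29 autosomes, which share libraries, gene density and base composition, so it is given as a description. Without 4-cell TBE replicate 1, the 207 gained regions had a median of 348 bp and the 2463 lost regions one of 413 bp, with 8.70% and 4.47% on unplaced sequences, so the order of the lengths turned and that of the unplaced shares did not.

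The untreated libraries took no part in choosing these sets, although their embryos came from the same collections as the TBE. Gained regions had a peak in 3.97%, 5.61% and 22.3% of cases in untreated 2-cell replicates 1, 2 and 3, and in 91.3%, 73.7% and 53.4% in untreated 4-cell replicates 1, 2 and 3. The 4-cell libraries were all higher, with a mean of 72.8% ± 19.0 against 10.6% ± 10.1 (SD, n = 3 and 3, exact permutation p = 0.1, the smallest this design allows). Lost regions behaved the same way. They had a peak in 2.84%, 4.34% and 25.7% of cases in untreated 2-cell libraries and in 92.0%, 77.5% and 56.4% in untreated 4-cell libraries, a difference of 64.4 percentage points (exact permutation p = 0.1, n = 3 and 3). Without 4-cell TBE replicate 1 the difference was 67.5 points for the gained and 67.1 for the lost regions. Regions that TBE gained and regions that TBE lost were therefore both more often open in untreated 4-cell than in untreated 2-cell libraries. All 3961 4-cell TBE regions rose alike, from a mean of 21.4% in untreated 2-cell to 82.9% in untreated 4-cell libraries. All 3230 2-cell TBE regions rose from 24.0% to 86.3%. The rise was thus not particular to the gained or lost regions.

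List length moved with that result, since the untreated 4-cell lists held 14355 to 42012 peaks and the untreated 2-cell lists 1002 to 6440. The 925 top peaks of each list were used to draw the sets anew, as 287 gained and 213 lost regions, and to read them. The difference between untreated 4-cell and 2-cell libraries was then 22.0 percentage points for gained regions (exact permutation p = 0.1). For lost regions it was 11.7 (exact permutation p = 0.2). This setting changed the regions as well as the list length. For the regions with no peak at all in the other TBE stage it was 55.8 points for the 924 gained and 38.0 points for the 202 lost. Here the lost regions had the lower mean shares. In untreated 4-cell libraries these were 62.0% for gained and 44.2% for lost regions, and in GV oocytes 71.6% and 58.9%.

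In the reverse direction, 14468 regions were gained from the 2-cell to the 4-cell stage in untreated embryos, by the same rule. A peak lay in 2.88%, 25.4% and 38.8% of them in 2-cell TBE replicates 1, 2 and 3, and in 68.0%, 17.1% and 10.2% in 4-cell TBE replicates 1, 2 and 3. The groups overlapped, and their means differed by 9.38 percentage points (exact permutation p = 0.8, n = 3 and 3). Without 4-cell TBE replicate 1 the difference was -8.76 points and without 2-cell TBE replicate 1 it was -0.358 points. Of the 2139 regions gained in TBE, 1615 (75.5%) overlapped a region gained in untreated embryos, which was 11.2% of the latter. Of the 1407 lost in TBE, 1108 (78.7%) did so, and of the 1822 kept 1352 (74.2%).

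Most of the sites were also open before fertilisation and after the 4-cell stage. Gained regions had a peak in 82.7% ± 1.22 of cases in GV oocytes, 87.1% ± 1.64 in untreated 8-cell embryos and 93.9% ± 5.55 in 8-cell TBE (SD, n = 3 each). Lost regions had a peak in 87.4% ± 0.621, 92.4% ± 0.753 and 93.7% ± 5.88 of cases, and kept regions in 97.6% ± 0.581, 97.5% ± 0.990 and 98.1% ± 1.60. Among the untreated conditions the 2-cell libraries had the lowest mean share for each of the 3 sets. Kept regions had a peak there in 34.0% ± 22.0 of cases and in untreated 4-cell libraries in 94.8% ± 6.48. Without 4-cell TBE replicate 1, the 207 gained regions had a peak in 91.6% ± 1.22 of cases in GV oocytes, 93.6% ± 1.01 in 8-cell embryos, 91.3% ± 1.74 in ICM and 80.03% ± 10.4 in ESC (the inner cell mass and embryonic stem cells, SD, n = 3 each), and the 2463 lost regions in 91.5% ± 0.528, 94.5% ± 0.886, 91.9% ± 1.46 and 84.1% ± 6.88. These later and earlier lists were much longer, with 40132 to 44678 peaks in GV oocytes, 50090 to 247513 in 8-cell TBE and 125253 to 156569 in 8-cell embryos, and the part of list length in these shares was not tested.

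Of the gained regions, 1555 (72.7%) were regions of both GV oocytes and untreated 4-cell embryos, 233 of GV oocytes only, 145 of untreated 4-cell embryos only and 206 (9.63%) of neither. The lost regions divided much alike, with 1084 (77.0%) in both and 89 (6.33%) in neither. Of the kept regions, 1772 (97.3%) were in both and 3 (0.165%) in neither. In ICM and ESC all 2139 gained regions had a peak in 84.0% ± 2.37 and 74.6% ± 11.4 of cases. Regions of 8-cell TBE that were not regions of untreated 8-cell embryos took in 195 (9.12%) of the gained, 78 (5.54%) of the lost and 30 (1.65%) of the kept regions. Regions without a peak in any of the 21 untreated libraries numbered 15 gained (0.701%), 8 lost (0.569%) and 0 kept.

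**Figure D4:**
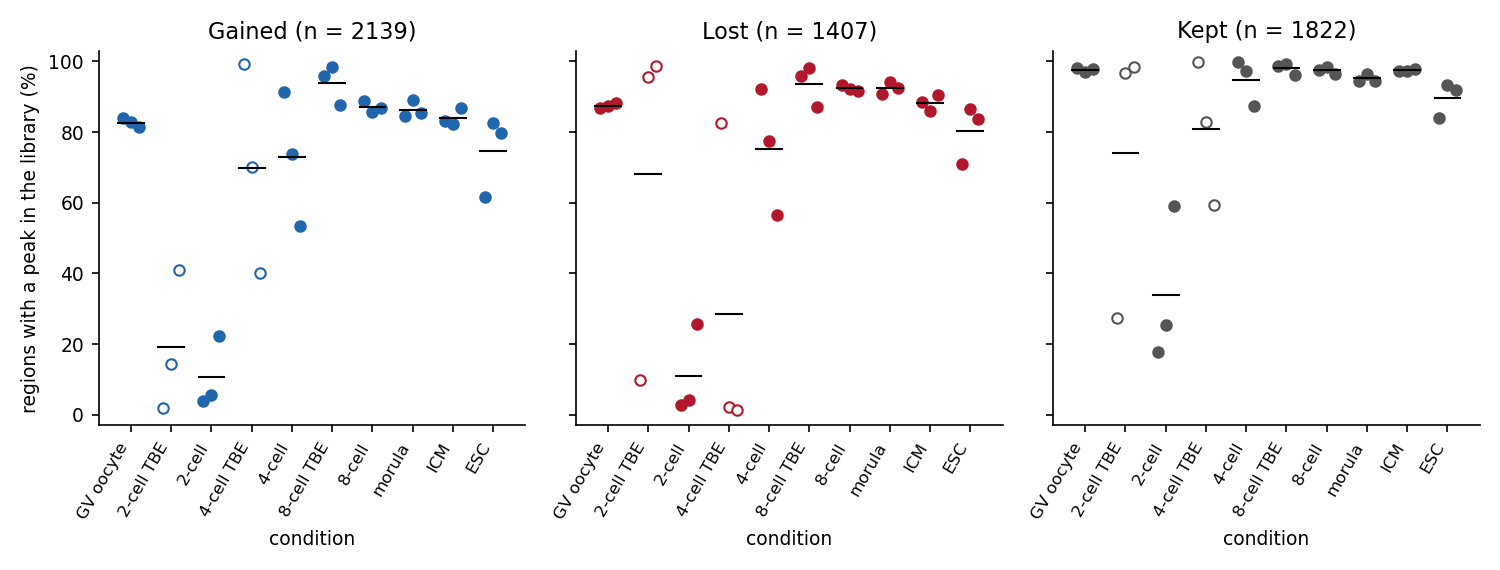
Share of gained, lost and kept regions (%) with a peak in each library of the 10 conditions, 1 point a library and a line at the mean of 3; open points are the libraries that chose the regions. Gained and lost regions had means of 10.6% and 10.9% in untreated 2-cell embryos against 72.8% and 75.3% in untreated 4-cell embryos. Kept regions rose as well, from 34.0% to 94.8%.

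The 41 regions with a peak in all 4-cell TBE and no 2-cell TBE library had a median length of 557 bp and mean fold enrichments of 3.46 to 7.18. Of them 35 had a peak in at least 2 untreated 4-cell libraries, 27 had none in untreated 2-cell libraries, 32 had one in all 3 GV oocyte libraries and 39 in all 3 8-cell TBE libraries. Among the 311 regions with a peak in all 6 libraries these counts were 311, 16, 304 and 300. Of all 2139 gained regions, 79.5% were regions of untreated 4-cell embryos, 83.6% of GV oocytes and 96.3% of 8-cell TBE. The counts are thus not a trait of the 41 regions alone. No gene name or sequence is given for the regions, because the genome and annotation of ARS-UCD1.2 were not used here. The highest, at 22812-23063 on the unplaced sequence NKLS02001643.1, had fold enrichments of 7.91, 7.21 and 6.42 in 4-cell TBE replicates 1, 2 and 3 (mean 7.18 ± 0.746, SD, n = 3). It had a peak in 23 of the 24 libraries outside the 6 lists, the untreated 2-cell libraries included.

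A region on chromosome 17 (50283741-50284053, 313 bp) had 7.10, 6.04 and 4.84 in 4-cell TBE. It had a peak in all untreated 4-cell, 8-cell, morula and GV oocyte libraries and in no untreated 2-cell library. A region on chromosome 19 (23306620-23306956, 337 bp) had 6.59, 5.19 and 4.58 in 4-cell TBE and was likewise without a peak in untreated 2-cell libraries, with one in all 3 untreated 4-cell libraries.

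The other two named regions were less widely shared. A region on chromosome 23 (21771024-21771293, 270 bp) had fold enrichments of 6.38, 5.48 and 4.89 in 4-cell TBE. It had a peak in 7 of the 24 other libraries, 2 of them untreated 4-cell and 2 GV oocyte, and in no untreated 8-cell, morula or ESC library. The region at 5065-5423 on NKLS02000379.1 had 6.87, 5.44 and 4.95 in 4-cell TBE, and a peak in all 3 untreated 2-cell and all 3 untreated 4-cell libraries and in no untreated 8-cell library. The named regions were chosen by height among those absent from 2-cell TBE, so their values in TBE are a description.

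The 1 region with a peak in all 2-cell TBE and no 4-cell TBE library lay on chromosome 18 (46378274-46378605, 332 bp). Its fold enrichment was 4.03, 5.53 and 6.19 in 2-cell TBE replicates 1, 2 and 3. It had a peak in 22 of the 24 other libraries, among them all 3 of untreated 4-cell and 1 of untreated 2-cell embryos.

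Where all 6 libraries had a peak, its height was not shown to differ between the stages. The 311 shared regions had a median length of 742 bp, 84 lay on unplaced sequences, and 111 had a peak in all 21 untreated libraries. Their median fold enrichment was 4.96, 5.46 and 5.92 in 2-cell TBE and 6.13, 5.41 and 5.03 in 4-cell TBE, in each group highest in the library of the highest background level. After each library was centred on its median over these regions, limma with Benjamini-Hochberg adjustment found 0 of 311 regions changed (0%) at an adjusted p of 0.05, the smallest adjusted p being 0.999. At an unadjusted p under 0.05, 3 regions differed. The differences on the log2 scale ran from -0.40 to 0.46, with a median SE of 0.19 and a median half-width of the 95% interval of 0.40. That interval is not adjusted for the number of regions. Even the largest difference, 0.46, had a limma adjusted p of 0.999. Changes of that size or smaller in a single region were thus not detected with these libraries.

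**Figure D5:**
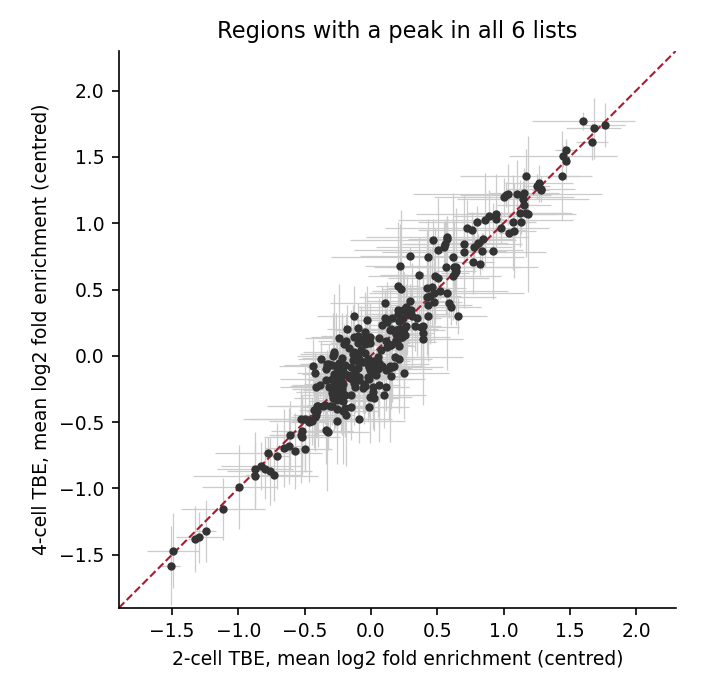
Mean log2 fold enrichment of the 311 regions with a peak in all 6 lists, each library centred on its median, in 2-cell TBE (horizontal) and 4-cell TBE (vertical), with the SD of 3 libraries as bars and the line of equality dashed. All regions lie within 0.5 of the line on the log2 scale.

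The 5 highest of the shared regions had high fold enrichment in every library, nearly equal in some and less so in others. On chromosome 17 (5546503-5546987, 485 bp) it was 18.4, 19.1 and 17.9 in 2-cell TBE and 18.2, 18.3 and 18.7 in 4-cell TBE. On chromosome 2 (40600373-40600740) the means were 17.4 ± 1.07 and 18.1 ± 1.18, and on chromosome 9 (20771813-20772095) 16.7 ± 3.06 and 18.8 ± 1.60 (SD, n = 3 each). Regions on the unplaced sequences NKLS02002110.1 (53702-54089) and NKLS02000520.1 (15500-15815) had 17.3 ± 0.543 and 15.1 ± 2.13 in 2-cell TBE and 16.9 ± 0.0776 and 16.2 ± 1.97 in 4-cell TBE. All 5 had a peak in every one of the other 24 libraries, with median fold enrichments of 15.6 to 17.5 there, from oocytes to ESC.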

How the data were processed

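The deposited files were lists of broad peaks, 1 per library. The authors used Trim Galore for trimming and BWA 0.7.17 for alignment to ARS-UCD1.2, removed PCR duplicates, mitochondrial alignments and alignments of quality under 15, and called peaks with MACS2 2.1.1 (versions from the submitters' processing notes) at q 0.05, extending tags to 200 bp. Per the file columns, the authors' MACS2 gave each peak a fold enrichment (a ratio to the local background of the same library), a −log10 p and a −log10 q, averaged over the peak, and a score, which was not used. None is scaled between libraries.

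Overlaps (at least 1 bp), covered length, background levels and exact permutation tests were computed in Python 3.11.15 with numpy 2.4.6 and pandas 2.3.3, and shared regions were tested with limma 3.58.1 in R 4.3.3, on log2 fold enrichment centred per library. Overlap, background level and limma steps were tested on simulated data. Named regions were the 5 of highest mean fold enrichment among regions with peaks in all libraries of 1 TBE stage and none of the other, and among regions with peaks in all 6. Members and rules were chosen with earlier results of these data known. No region passed the limma threshold, so none was named for it. The threshold at −log10 p of 5, the regions with no peak at all at the other stage, the settings that leave out 1 library of each stage, the pairing of TBE with untreated libraries by number and the reading of untreated gained regions in TBE were added after seeing the data. Genes, promoters, base composition and motifs were not analysed here. P-values measure the spread between pools.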

Additional observations from a re-analysis of the deposited data

How the results depend on the processing

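The ratio of covered length turned below 1 without 4-cell TBE replicate 1 (0.759) and without 2-cell TBE replicate 1 (0.770), as did the number of peaks (0.822 and 0.787) and the median peak length (0.944 and 0.954). Leaving out each library in turn gave 0.759 to 2.79 for covered length, 0.787 to 2.72 for peaks, 0.944 to 1.10 for median length and 1.05 to 2.74 for covered length per background level. The ratio of background levels ran from 0.687 to 1.14, above 1 without 2-cell TBE replicate 3 (1.14) and without 4-cell TBE replicate 2 (1.07). Except where it was left out, 2-cell TBE replicate 1 entered both ratios with background levels by its upper limit. By the overlap coefficient, the difference between pairs within and between stages was 0.0242, against -0.0209 for the Jaccard index. Gained and lost regions numbered 26062 and 7897 with peaks in any replicate, 662 and 154 with peaks in all 3, 462 and 337 when peaks had to reach a −log10 q of 3, 287 and 213 with equal numbers of top peaks, and 924 and 202 with no peak at all at the other stage. Leaving out each library, or 1 of each stage, gave 207 to 3522 gained and 73 to 2463 lost. Without 2-cell TBE replicate 2 they numbered 3492 and 119, and without 4-cell TBE replicate 2, 842 and 2148. The regions gained in untreated embryos differed between the TBE stages by -8.76 to 20.2 percentage points, below 0 without 2-cell TBE replicate 1 (-0.358) and without 4-cell TBE replicate 1 (-8.76). The ratio of the change in TBE to that in untreated embryos ran from 0.0601 to 0.221 without each library. With equal numbers of top peaks it was 0.902 and the ratio of covered length 1.02, which that setting fixes near 1, since lists then differ only in peak length. With peaks in any replicate, the difference between untreated stages was 17.6 points for gained and 14.8 for lost regions. Except where the alternative itself uses fewer libraries or peaks, the cause was not tested. With a replicate block, covered length kept its ratio of 1.69 (exact sign-flip p = 1, n = 3 pairs, of which the smallest possible is 0.25), and limma called 0 regions. For the other results by library, no p with the block could pass 0.05, and none had passed it without the block. Over the 311 shared regions, deviations of same-numbered libraries correlated at -0.115, -0.173 and -0.0447, against -0.181 to 0.263 for unequal numbers. This cannot tell whether equal numbers mark 1 collection, because the deviations hold every difference between libraries. Limma called 0 regions without each library in turn, with the smallest adjusted p at 0.140 without 2-cell TBE replicate 1, where 22 regions had an unadjusted p under 0.05. The alternatives planned for promoters and base composition were not run. Absence of a peak means only that none was called in that list, and no read depth was used here to bound it.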
